A study of Mus musculus with 12 samples.

Results

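The mRNA content of the mouse brain was compared 1 h after a single oral dose of AZD-8055, an inhibitor of the kinase mTOR, with that of brains from mice given the vehicle. The comparison used 4 poly(A) RNA-Seq libraries of the 12 libraries in the series, chosen by assay and treatment alone: brains C and D, from mice given AZD-8055 at 100 mg/kg, and brains A and B, the controls. The sample labels call A and B untreated, and the methods of the study have the controls receive the Captisol vehicle by gavage. Each library came from the homogenate of a right frontal lobe of 1 adult mouse that carried Camk2a-cre and the RiboTag allele, in which the recombinase, driven in excitatory forebrain neurons, places an HA tag on the ribosomal protein Rpl22. All 4 mice carried these alleles, and since total homogenate was sequenced, the RNA came from all cells of the tissue and not from the tagged neurons. Untreated inputs E and F were the homogenates of 2 further brains of this cross that were sequenced for a RiboTag pulldown. They served as an outside view of levels in untreated brains. By Xist and Ddx3y they were of the other sex than A to D, and they came from another experiment, so they do not show variation among untreated brains alone. Footprint libraries were not used.

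mTOR works in 2 complexes. Complex 1 drives protein synthesis through the S6 kinases and the 4E-BP repressors and restrains autophagy, and complex 2 activates AKT and the kinase SGK1, which keep FOXO transcription factors out of the nucleus. AZD-8055 competes with ATP and blocks both. The best known targets of complex 1 are mRNAs that start with a terminal oligopyrimidine (TOP) tract, which code for ribosomal proteins and translation factors and which are controlled in their translation rather than in their amount, so the mRNA level is a separate readout of the drug.

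Few mRNAs differed. Of 13180 genes tested, 5 were higher in the treated brains (0.0379%) and 13 were lower (0.0986%) at an adjusted p under 0.05 by edgeR's quasi-likelihood test. The higher genes were Epha2, Edn1, Cyr61, Dusp1 and Dusp6, which code for a receptor, 2 secreted signals and 2 phosphatases of MAP kinases. The lower genes held members of the Notch pathway (Hes5, Lfng), genes known to respond to glucocorticoids (Plin4, Zbtb16), chaperones of the endoplasmic reticulum (Hspa5, Manf), genes of very large proteins (Mdn1, Ahnak, Macf1, Mll1, Fat3), and Sox8 and AI414108. Changes were small: 4 of the 18 genes differed by more than 2-fold, and 90% of the tested genes lay between -0.27 and 0.24 on the log2 scale. None of the 75 ribosomal protein mRNAs tested passed.

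The calls rest on 4 libraries and on vehicle brain B in particular. All 18 genes kept their direction without any 1 of the 4 brains, but without brain B no gene passed, without brain A 8 of the 18 passed, and without C or D all 18 did. No gene passed either when all 8 RNA-Seq libraries shared the estimate of spread or when inputs E and F joined the controls, although the direction of all genes that could be tested stayed the same. Counts over coding sequence (CDS) alone, a subset of the exon counts, called 7 genes higher (0.0575% of 12182) and 11 lower (0.0903%), of which 14 were among the 18. Library depth was even, with 16796999 to 18947314 exon counts in A to D.

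**Figure D1:**
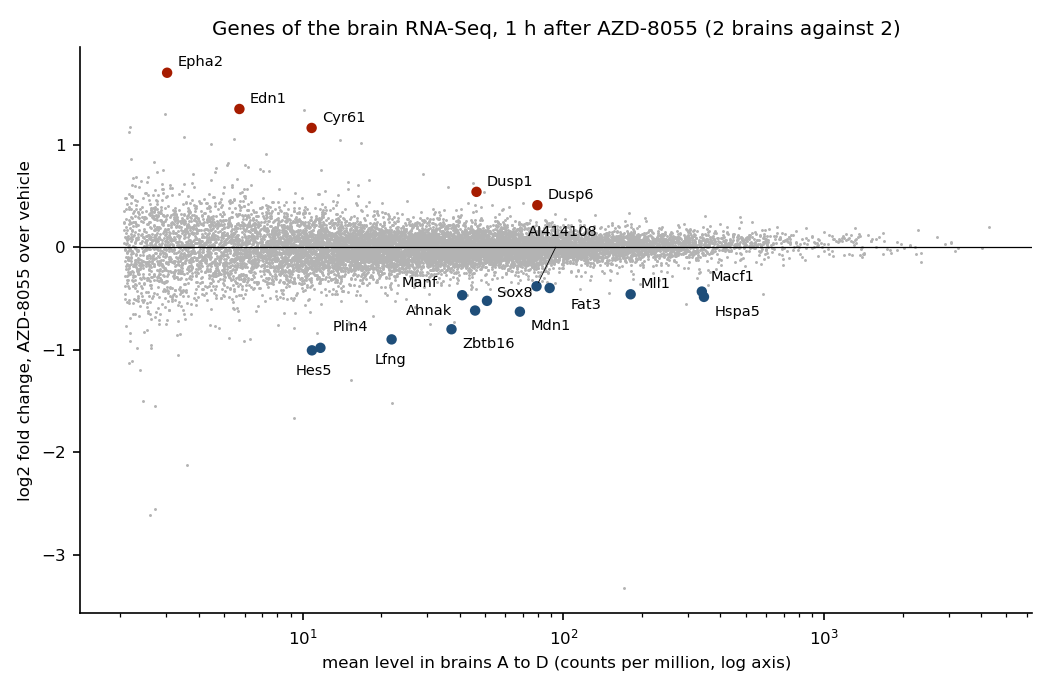
Each point is 1 of the 13180 genes tested, by its mean level in brains A to D in CPM (horizontal, log axis) and its log2 fold change, AZD-8055 over vehicle (vertical). Red and blue points are the 5 genes higher and the 13 lower at an adjusted p under 0.05; Epha2 at 1.70 and Hes5 at -1.01 are the ends of the called set.

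Sequence upstream of some of these genes holds known regulatory motifs, shown here because they name the factors best known for the groups of genes described after them. The 250 bases before the start of each gene in the RefSeq promoter table (GRCm38.p6, 32851 windows) were searched on both strands, with the start as that table sets it, and capitals below mark the matches. The percentages are shares of single windows, whereas a named gene was counted if any window under its name matched. The endoplasmic reticulum stress element, CCAAT and CCACG separated by any 9 bases, lay in 0.113% of all windows and in those of 9 of the 29 genes of the endoplasmic reticulum stress response that had a window. That list holds genes of the response the element is named for, so its share is not a result of these data. Among called genes with a window the element lay in that of Hspa5, 1 of 10 lower genes, and in 0 of 5 higher genes.
Hspa5 (chr2:34772000-34772068, plus strand): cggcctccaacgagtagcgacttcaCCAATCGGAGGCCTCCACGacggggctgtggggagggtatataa
Calr (chr8:84847050-84847118, minus strand): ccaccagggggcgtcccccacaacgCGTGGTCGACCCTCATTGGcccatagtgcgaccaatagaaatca
Pdia6 (chr12:17266466-17266534, plus strand): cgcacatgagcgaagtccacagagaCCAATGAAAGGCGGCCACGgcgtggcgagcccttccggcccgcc
Creld2 (chr15:88819495-88819563, plus strand): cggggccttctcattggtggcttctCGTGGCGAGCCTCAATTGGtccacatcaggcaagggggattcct
Dnajc3 (chr14:118937802-118937870, plus strand): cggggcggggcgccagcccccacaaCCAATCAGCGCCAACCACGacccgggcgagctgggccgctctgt
The motif of RBPJ, the DNA-binding partner of Notch, GTGGGAA, lay in 5.42% of windows. It lay in those of both Notch genes that passed, 2 times in Hes5, and in that of Ahnak. The start that sets the Hes5 window lies inside the span RefSeq gives the gene, so these bases fall within that span.
Hes5 (chr4:154960673-154960871, plus strand): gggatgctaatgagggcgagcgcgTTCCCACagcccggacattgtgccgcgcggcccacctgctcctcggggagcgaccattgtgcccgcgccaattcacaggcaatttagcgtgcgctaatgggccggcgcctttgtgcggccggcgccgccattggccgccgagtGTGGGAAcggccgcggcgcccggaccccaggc
Lfng (chr5:140607207-140607263, plus strand): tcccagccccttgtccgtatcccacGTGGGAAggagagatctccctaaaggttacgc
The cAMP response element TGACGTCA, bound by CREB, lay in 1.55% of windows and in those of 2 of the 5 higher genes.
Dusp1 (chr17:26508583-26508640, minus strand): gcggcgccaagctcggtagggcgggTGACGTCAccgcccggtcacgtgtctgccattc
Epha2 (chr4:141301163-141301220, plus strand): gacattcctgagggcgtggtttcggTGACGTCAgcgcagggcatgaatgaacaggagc
The TEAD motif GGAATG, found in 12.6% of windows, lay in those of 3 higher genes (Cyr61, Edn1, Epha2) and 2 lower genes (Ahnak, Macf1), and the E-box CACGTG, found in 6.02%, in those of the higher gene Dusp1 and the lower genes Lfng and Sox8. TGTTTAC, a FOXO motif found in 3.17% of windows, lay in none of those of the 15 called genes that had a window. The other motifs searched, the CArG box (1.47% of windows) and the AP-1 site (4.46%), lay in those of none of the 5 higher genes. Among the lower genes the CArG box lay in that of Hes5 and the AP-1 site in that of Hspa5. A match says only that these letters are in the window.

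The 5 higher genes belong to signals and to the feedback on them. Epha2 (chr4:141301221-141329384), a receptor tyrosine kinase for ephrins, stood at 1.55 and 1.28 CPM (the count scaled to a common library total) in A and B and at 5.24 and 4.02 in C and D, a log2 fold change of 1.70 ± 0.26 (SE, adjusted p = 0.0257). These levels rest on 26, 23, 92 and 76 counts, so the fold is less certain than those of abundant genes. Edn1 (chr13:42301476-42307990), which codes for the vasoconstrictor endothelin-1, stood at 2.86 and 3.57 CPM in the controls and at 8.38 and 8.09 after the drug (log2 fold change 1.35 ± 0.19, adjusted p = 0.0175). Its CDS counts gave a log2 fold change of 1.497 and missed the threshold (adjusted p = 0.0595). Cyr61 (chr3:145646971-145649985), a matricellular protein and a target of YAP, went from 6.45 and 6.92 CPM to 13.8 and 16.2, a log2 fold change of 1.16 ± 0.15 (adjusted p = 0.00957). In all 3 genes both treated brains lay above both controls, and also above both inputs E and F, where Cyr61 stood at 8.78 and 10.1 CPM and Edn1 at 3.72 and 2.87.

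Dusp1 and Dusp6 code for phosphatases that switch MAP kinases off and are themselves induced by MAP kinase signalling. Dusp1 (chr17:26505591-26508472) stood at 37.7 and 37.97 CPM in A and B and at 57.5 and 52.7 in C and D, 1.46 times the control level (log2 fold change 0.54 ± 0.07, adjusted p = 0.0175). Dusp6 (chr10:99263231-99267489), which is specific to ERK, stood at 69.3 and 67.2 against 93.8 and 87.6 CPM, 1.33 times the control level (log2 fold change 0.41 ± 0.06, adjusted p = 0.0235). Inputs E and F lay at the control level for both, with 36.5 and 38.6 CPM for Dusp1 and 70.9 and 60.1 for Dusp6. With E and F in place of A and B, Dusp1 (adjusted p = 0.0289) and Dusp6 (adjusted p = 0.0493) also passed. That fit used the same treated brains C and D and called 717 of 13492 genes. Sex and experiment differ along with the drug in it.

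Among the other 18 tested ERK feedback genes none passed, and the median log2 fold change of the 19 was 0.03, beside -0.002 over all genes tested. It turned to -0.09 without brain B and -0.10 without brain C, and was 0.11 without brain D. The Sprouty genes, inhibitors of receptor tyrosine kinase signalling, did not move alike: Spry2 stood at 56.7 and 55.3 against 70.3 and 68.2 CPM (log2 fold change 0.31, adjusted p = 0.118), Spry1 at 0.53 (adjusted p = 0.276) and Spry4 at -0.12 (adjusted p = 0.749). Spry1 and Spry2 were picked after their values were seen. Il17rd was the lowest member at -0.41 (adjusted p = 0.514).

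Immediate early genes are the first transcribed after neuronal activity or a growth signal. Of 39 tested, Cyr61 and Dusp1 passed, both higher. At an unadjusted p under 0.05, 15 of the 39 were higher and 3 lower, where 4.68% of all genes were higher and 5.36% lower, and the median log2 fold change was 0.09. The members classed with activity did not share a direction. Npas4, a transcription factor induced by calcium entry in neurons, stood at 20.1 and 33.2 CPM in the controls and 22.0 and 15.2 after the drug, with groups that overlapped (log2 fold change -0.53, adjusted p = 0.443). Arc, a synaptic regulator, overlapped too, at 374 and 342 against 344 and 236 CPM. Fos (48.0 and 40.3 against 51.8 and 48.0 CPM), Egr1 (378 and 345 against 417 and 390) and Junb (55.5 and 60.2 against 68.0 and 62.0) lay higher by 0.16 to 0.18 on the log2 scale and did not pass. Members picked after their values were seen lay further up: Klf6 at 0.54 (adjusted p = 0.0597), Egr2 at 0.41, Btg2 at 0.45 and Atf3 at 0.83, none of which passed. The list's median was 0.01 without brain C and 0.18 without brain D, and Klf6 and Btg2 in input F, at 64.0 and 30.9 CPM, were as high as in the treated brains or higher.

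**Figure D2:**
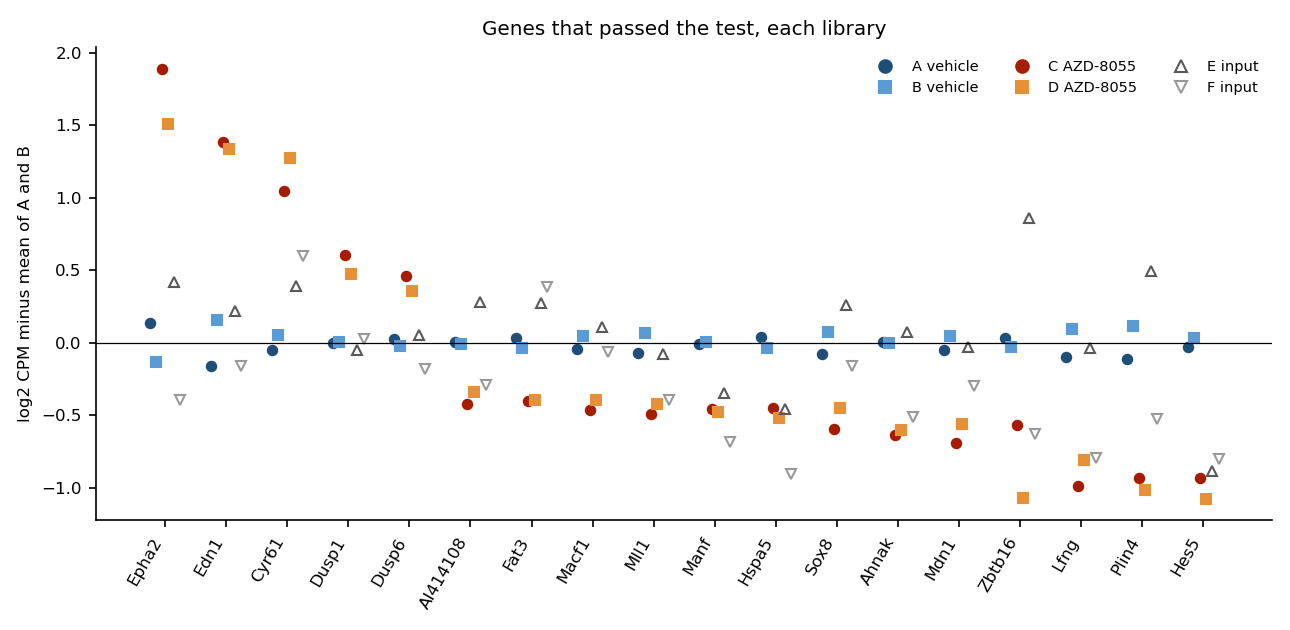
Level of each of the 18 genes that passed in each library, as log2 CPM minus the mean of vehicle brains A and B (vertical), with the genes ordered by fold change. C and D (red, orange) lie apart from A and B (blue) in all 18 genes. Inputs E and F (open triangles) lie near C and D, or below them, for Hes5, Hspa5 and Manf.

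Hes5 and Lfng fell in the Notch pathway. Notch receptors release an intracellular domain that, with RBPJ, switches on Hes and Hey repressors, and Hes5 is made in astrocytes and neural progenitors. Hes5 (chr4:154960626-154962372) stood at 14.2 and 14.8 CPM in A and B and at 7.58 and 6.87 in C and D, 0.498 times the control level (log2 fold change -1.01 ± 0.14, adjusted p = 0.0175). Lfng (chr5:140607341-140615545), a glycosyltransferase that modifies Notch receptors, stood at 26.7 and 30.5 against 14.4 and 16.3 CPM (log2 fold change -0.90 ± 0.11, adjusted p = 0.00957). The CDS counts gave -1.15 for Hes5 and -1.09 for Lfng. Input E held Lfng at 27.8 CPM and F at 16.5, and both inputs held Hes5 near the treated level, at 7.86 and 8.32 CPM. Untreated brains of this cross thus came near the low level of both genes, for Lfng in F alone. These inputs differ from A to D in sex and experiment too.

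The rest of the pathway gave no call. Of 32 members tested 2 passed, and 1 was higher and 6 lower at an unadjusted p under 0.05 (4.68% and 5.36% of all genes), with a median of -0.03 that turned to 0.04 without brain B. Notch1 itself stood at 26.3 and 31.3 against 24.1 and 24.6 CPM (log2 fold change -0.24, adjusted p = 0.468), Hes1 at 11.4 and 10.3 against 11.5 and 12.1 (0.12, adjusted p = 0.808), and Dll4, a ligand of vessels, was the highest member at 0.38 with overlapping groups. Dtx4, Hey1 and Hey2, picked after their values were seen, lay at -0.33, -0.21 and -0.46, with both treated brains below both controls and none past the threshold. Over the 32 members, both treated brains lay below both controls in 11 and above in 6, where 20.6% and 20.3% of all genes did. The summed level of astrocyte markers was 5036 and 5344 CPM in A and B and 5054 and 4966 in C and D, and none of the 14 passed.

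Sox8 (chr17:25565893-25570686), a transcription factor of glia, fell from 56.9 and 63.3 CPM to 39.7 and 44.0 (log2 fold change -0.52 ± 0.08, adjusted p = 0.0257), and its CDS counts, at -0.42, did not pass (adjusted p = 0.164). Summed oligodendrocyte markers stood at 4896 and 5484 CPM in A and B and at 4583 and 5294 in C and D. Id3, an inhibitor of helix-loop-helix factors and a readout of BMP signalling, lay at 21.4 and 24.4 against 15.8 and 13.1 CPM and missed the threshold (log2 fold change -0.67, adjusted p = 0.0951). Cyr61 was the sole gene past the threshold among 21 readouts of the TGF-beta, BMP, Wnt, Hedgehog and YAP pathways, while Ctgf, the other matricellular YAP target, stood at 39.7 and 33.6 against 49.8 and 49.3 CPM (0.44, adjusted p = 0.106).

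Glucocorticoids are stress hormones that act through a receptor that induces a known set of genes. Plin4 (chr17:56100587-56109948), a lipid droplet protein, stood at 14.3 and 16.8 CPM in the controls and 8.09 and 7.66 in the treated brains (log2 fold change -0.98 ± 0.14, adjusted p = 0.0187). Zbtb16 (chr9:48651797-48836225), a zinc finger repressor, stood at 48.3 and 46.3 against 31.9 and 22.5 CPM (-0.80 ± 0.13, adjusted p = 0.0263). Of 29 members tested, these 2 fell and Dusp1 rose, with a median of -0.10. At an unadjusted p, 8 were lower and 4 higher, where 5.36% and 4.68% of all genes were.

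Other members lay lower without passing. Fkbp5, a chaperone partner of the receptor, stood at 73.8 and 63.2 against 54.0 and 47.5 CPM (log2 fold change -0.43, adjusted p = 0.106), Tsc22d3 at 150 and 155 against 126 and 133 (-0.23, adjusted p = 0.246), and Sgk1 at 192 and 207 against 167 and 201, with groups that overlapped. Per1, a clock gene with a glucocorticoid response, lay higher at 0.23 (adjusted p = 0.443). These genes varied between the untreated inputs: Zbtb16 stood at 85.7 CPM in E and 30.6 in F, Plin4 at 21.9 and 10.8, and Fkbp5 at 82.4 and 33.5, so E lay above both controls and F below them. With E and F as controls the list's median was 0.21.

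Genes that FOXO factors switch on when AKT is blocked gave no call in 30 tested (adjusted p of at least 0.106), with 8 higher and 1 lower at an unadjusted p (4.68% and 5.36% of all genes) and a median of 0.04 that was 0.07 to 0.08 without brain A, B or D. Both treated brains lay above both controls in 14 of the 30, where 20.3% of all genes did, and below in 2, where 20.6% did. Txnip, which restrains glucose uptake, was the highest member at 26.7 and 30.8 against 37.6 and 48.9 CPM (log2 fold change 0.59 ± 0.12, adjusted p = 0.106). Irs2, an adaptor of the insulin receptor, stood at 43.1 and 45.1 against 59.4 and 46.7 (0.27, adjusted p = 0.423), and the insulin receptor Insr lay at -0.02 with overlapping groups (adjusted p = 0.936). Fbxo32, a ubiquitin ligase of atrophy, and Pik3ip1, a PI3 kinase inhibitor, both picked after their values were seen, lay at 0.38 and 0.32. With inputs E and F as controls the median of the list was 0.22.

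The mRNAs of the mTOR pathway itself gave no call. None of 58 components passed, the median was 0.03, and 7 were higher and 4 lower at an unadjusted p (4.68% and 5.36% of all genes). Mtor stood at 124 and 117 CPM in the controls and 120 and 121 after the drug (log2 fold change 0.00 ± 0.06), Rptor at 93.5 and 90.2 against 96.3 and 94.97 (0.06), and the S6 kinase gene Rps6kb1 at 62.5 and 62.0 against 58.1 and 52.6 (-0.17, adjusted p = 0.462). Ddit4, which restrains complex 1 and responds to glucocorticoids, stood at 69.0 and 73.8 against 54.7 and 63.6 CPM (-0.27, adjusted p = 0.276). Eif4ebp1, at 1.69 to 2.51 CPM, was the lowest member at -0.37 ± 0.26, a value within the error of a gene this rare, and Eif4ebp2 stood at -0.03. Fnip1, Rragd and Flcn, which take part in amino acid signalling at the lysosome and were picked after their values were seen, each lay 0.20 to 0.22 higher, with both treated brains above both controls. Over the 58 components, both treated brains lay above both controls in 16 and below in 12, where 20.3% and 20.6% of all genes did.

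Ribosomal protein mRNAs, the largest TOP group, had the narrowest range of the 19 lists. Of the 75 tested none had an unadjusted p under 0.05 in either direction, the members ran from -0.14 (Rpl21) to 0.13 (Rpl41), and the median was 0.00. With inputs E and F as controls the median was 0.40, and the summed level was 14740 and 14720 CPM in A and B, 15000 and 14530 in C and D, and 11520 and 10980 in E and F. Other TOP mRNAs gave a median of -0.01 over 20, with Eif4b, a helicase cofactor, the one at an unadjusted p under 0.05 (223 and 214 against 250 and 247 CPM, log2 fold change 0.19, adjusted p = 0.322). Eef1a1 stood at 2154 and 2091 against 2193 and 2109 CPM, Eef2 at 1211 and 1206 against 1317 and 1259, and Pabpc1 at 181 and 174 against 203 and 187, all without passing. Rpl22, which carries the tag, stood at 53.1 to 56.6 CPM in the 4 brains. Ribosome biogenesis genes, 38 tested, gave a median of -0.02 and no call.

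Lysosome and autophagy genes, which TFEB drives when complex 1 is off, gave no call in 44, with 5 higher and 0 lower at an unadjusted p (4.68% and 5.36% of all genes) and a median of 0.05. SREBP targets of sterol synthesis lay at -0.07 over 34, with 6 lower and 1 higher at an unadjusted p, and ATF4 targets at -0.04 over 31. HIF1 and glycolysis genes stood at 0.03 over 30, circadian genes at 0.07 over 20, growth factor receptors at -0.02 over 23, plasticity genes of excitatory neurons at 0.02 over 31 and interferon and inflammatory genes at 0.04 over 19. None of these lists held a gene past the threshold.

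**Figure D3:**
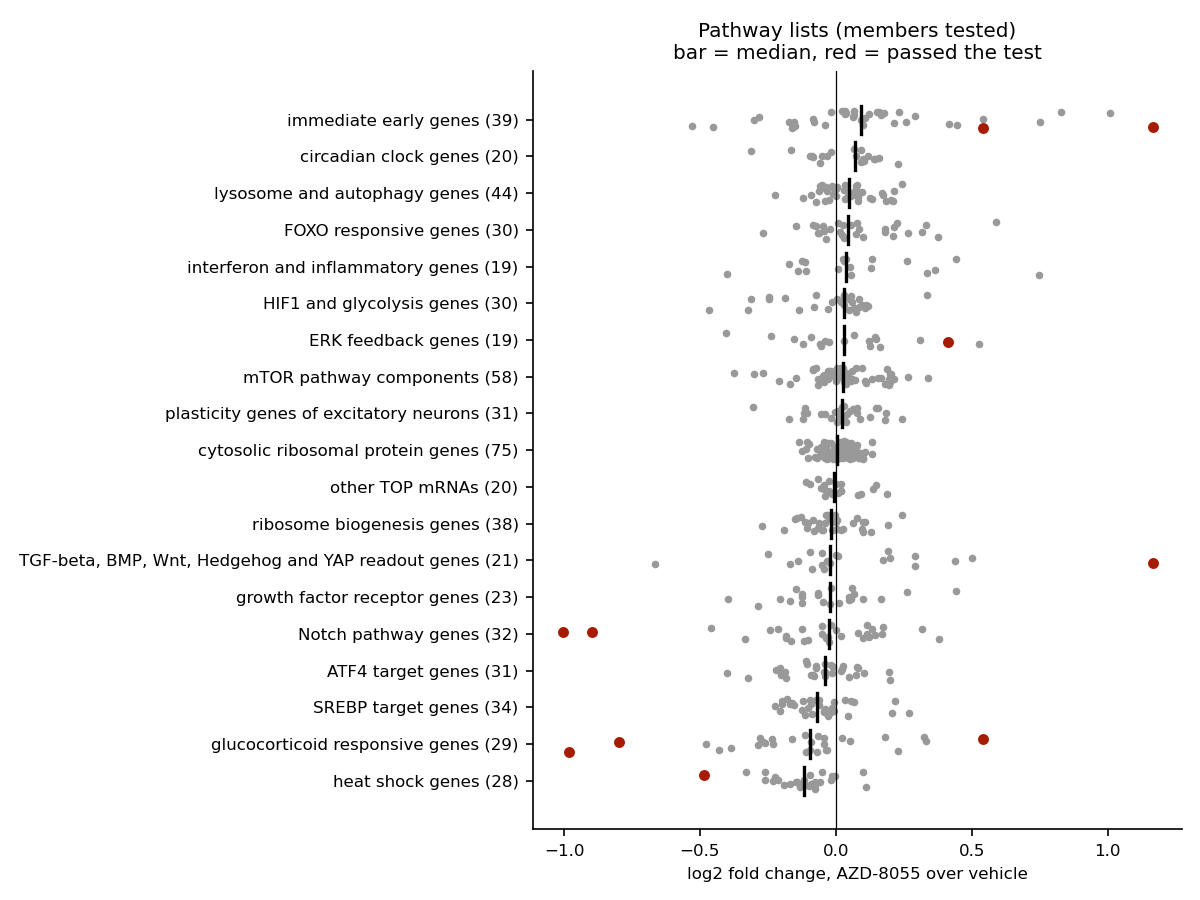
Log2 fold change, AZD-8055 over vehicle (horizontal), of each tested member of 19 pathway lists, with the number tested in brackets, the median as a bar and members that passed in red. Ribosomal protein genes lie between -0.14 and 0.13, and the lowest median, -0.12, belongs to the heat shock genes.

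Hspa5 and Manf, which code for chaperones of the endoplasmic reticulum, fell. Proteins that are secreted or inserted in membranes fold there with the help of chaperones. The unfolded protein response controls genes of such chaperones, some of them through the stress element shown above. A match to that element was found for Hspa5 and not for Manf. Hspa5 (chr2:34772090-34776529), the main chaperone BiP, stood at 414 and 393 CPM in A and B and at 296 and 281 in C and D, 0.715 times the control level (log2 fold change -0.48 ± 0.06, adjusted p = 0.00957). Manf (chr9:106888753-106891938), a secreted partner of BiP, stood at 47.3 and 47.7 against 34.5 and 34.2 CPM (-0.47 ± 0.07, adjusted p = 0.0263). Hspa5 was the one call among 28 heat shock genes, whose median was -0.12, with 8 lower and 0 higher at an unadjusted p, where 5.36% and 4.68% of all genes were. The median was -0.05 without brain A, -0.19 without brain B and 0.18 with inputs E and F as controls.

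A list of endoplasmic reticulum stress genes, drawn up after the values were seen and so no support for the direction, held 34 tested genes with a median of -0.08, of which 2 passed, with 13 lower and 0 higher at an unadjusted p (5.36% and 4.68% of all genes). The median was -0.15 without brain D and -0.02 with E and F as controls. Pdia4 stood at 58.1 and 57.1 against 47.5 and 42.2 CPM (log2 fold change -0.36, adjusted p = 0.121), Creld2 at 18.2 and 19.0 against 13.7 and 14.01 (-0.42, adjusted p = 0.244), Pdia6 at -0.28, Dnajc3 at -0.28, Calr at -0.24 and Hsp90b1 at -0.21. Xbp1, the transcription factor of the response, lay at 85.0 and 93.1 against 74.4 and 73.1 CPM (-0.27, adjusted p = 0.188). Other members lay closer to 0: Herpud1, Dnajb9, Sel1l and the stress factor Ddit3 lay between -0.07 and 0.00. Of the genes with the element shown above, Canx, Syvn1 and Ero1lb lay at -0.06, -0.01 and -0.08.

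The untreated inputs, which differ from the vehicle brains in sex too, held Hspa5 and Manf low as well. Inputs E and F held Hspa5 at 294 and 216 CPM and Manf at 37.4 and 29.5. F lay below both treated brains for each gene, while E lay between C and D for Hspa5 and above both for Manf. With E and F as controls the fold change turned to 0.18 for Hspa5 and 0.04 for Manf. Summed over the list, A and B stood at 3673 and 3582 CPM, C and D at 3221 and 3210, and E and F at 3341 and 3209.

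Of the genes of very large proteins, 5 fell. Mdn1 (chr4:32657114-32775217), an AAA ATPase of ribosome assembly, stood at 80.0 and 85.5 against 51.1 and 56.0 CPM (log2 fold change -0.63 ± 0.07, adjusted p = 0.00938), and Ahnak (chr19:8989284-9076935), a scaffold protein, at 55.7 and 55.4 against 35.7 and 36.7 (-0.62 ± 0.07, adjusted p = 0.00938). Macf1 (chr4:123349633-123687802), which links actin to microtubules, stood at 378 and 403 against 282 and 296 CPM (-0.43 ± 0.06, adjusted p = 0.0175). Mll1 (chr9:44803355-44881352), a histone methyltransferase now named Kmt2a, stood at 200 and 220 against 149 and 156 (-0.46 ± 0.07, adjusted p = 0.0235), and the cadherin Fat3 (chr9:15910189-16502681) at 103 and 98.3 against 76.3 and 76.7 (-0.40 ± 0.06, adjusted p = 0.021). AI414108 (chr9:27299104-27357549), named Igsf9b in RefSeq and coding for an adhesion protein of inhibitory synapses, stood at 89.6 and 89.0 against 66.6 and 70.6 CPM (-0.38 ± 0.06, adjusted p = 0.0268).

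Of a list of genes of very large proteins, also drawn up after the values were seen, 63 were tested, of which 5 passed, 39 were lower and 0 higher at an unadjusted p (5.36% and 4.68% of all genes), and both treated brains lay below both controls in 46 (20.6% of all genes). The median was -0.20. Dst, another cytolinker, stood at 399 and 407 against 292 and 334 CPM (log2 fold change -0.36, adjusted p = 0.0826), the kinase Smg1 at 207 and 234 against 173 and 172 (-0.36, adjusted p = 0.106), the calcium channel Ryr2 at -0.31 and the ubiquitin ligase Herc2 at -0.28. Itpr1, Cacna1a, Kalrn, Pcnt and Chd8 lay between -0.04 and 0.06. The summed level was 11150 and 11270 CPM in A and B, 9668 and 9955 in C and D, and 12710 and 12200 in E and F, while the median was -0.33 with E and F as controls. The called genes did not all follow the sum: input F held Ahnak at 38.9 CPM and Mll1 at 159, near the treated level, and Mdn1 at 67.3, below both controls.

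For these genes the CDS counts fell further than the exon counts outside the CDS, which lie in untranslated regions or across their border with the CDS. Over the 50 genes of the list with enough of both, the median log2 ratio of treated to control counts, scaled by library total, was -0.23 in the CDS and -0.17 outside it, and the CDS fell further in 35 (70.0%), against 34.6% of 9348 genes. Mdn1 gave -0.71 in the CDS and -0.14 outside it, Mll1 -0.65 and -0.32, Fat3 -0.61 and -0.28, and Macf1 -0.47 and -0.30. Of the 12 called lower genes with enough of both, the CDS fell further in 9 (75.0%). The 12 were called on exon counts, which include the CDS counts. These 9 took in the list's own Mdn1, Ahnak, Macf1, Mll1 and Fat3. Outside the list the CDS fell further in Hes5, at -1.133 and -0.879, Lfng, at -1.075 and -0.681, Zbtb16 and Manf. The CDS fell less in Sox8, at -0.407 and -0.631, Plin4, at -0.915 and -1.213, and Hspa5, at -0.483 and -0.582. Endoplasmic reticulum stress genes gave -0.10 and -0.13, and their CDS fell further in 31.0% of 29. The part of uneven coverage along the transcript in these values was not tested.

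**Figure D4:**
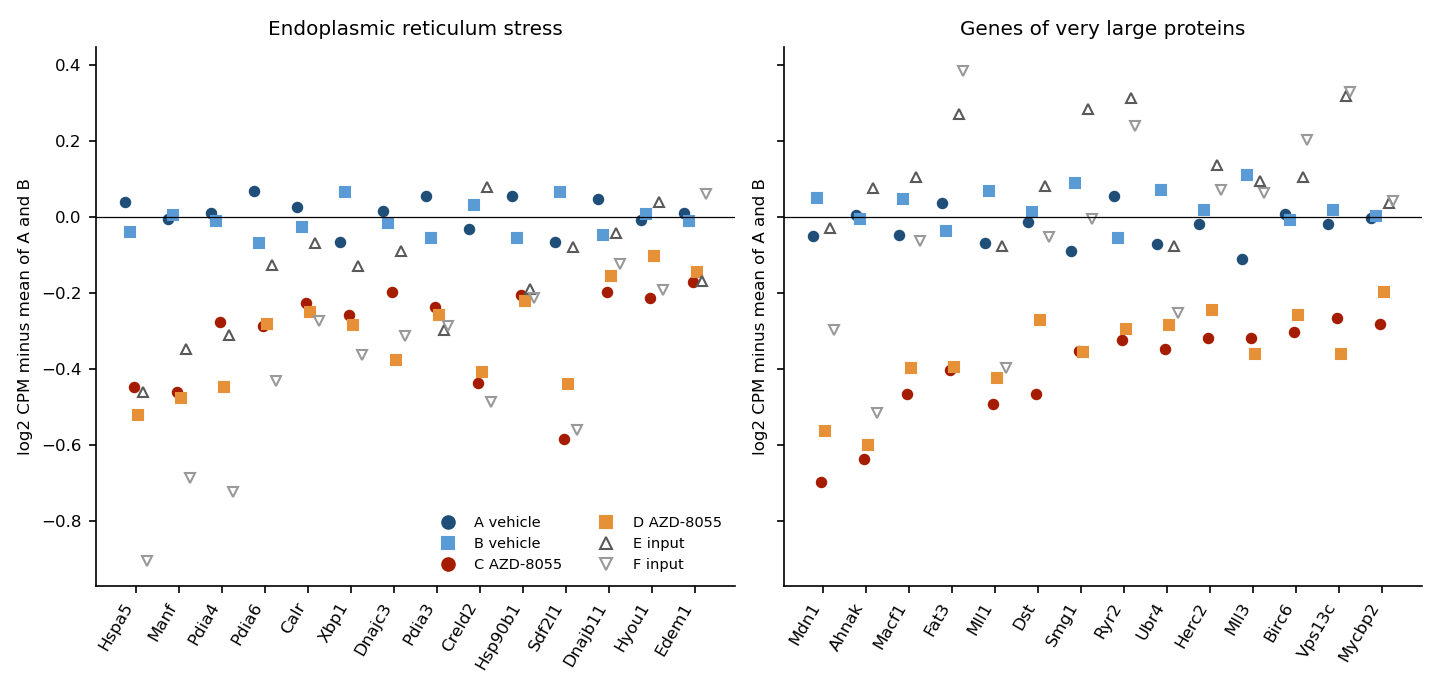
Level in each library, as log2 CPM minus the mean of vehicle brains A and B, of the 14 genes with the lowest p in each of 2 lists drawn up after the values were seen: endoplasmic reticulum stress genes (left) and genes of very large proteins (right). Treated brains C and D lie below A and B in both panels. In the left panel inputs E and F lie low for Hspa5, at 294 and 216 CPM, but not for every gene. Creld2 stood at 19.6 CPM in E, against 18.2 and 19.0 in A and B. In the right panel input E lies above the mean of A and B for most genes. Input F lies below it for Mdn1, Ahnak, Macf1, Mll1, Dst, Ubr4 and, barely, Smg1, and above it for Fat3, Ryr2 and the others.

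Vessel genes were listed after the values were seen because Edn1 and Epha2 are known in endothelium. Of 32 tested, 3 passed (Edn1, Epha2, Cyr61), and 12 were higher and 3 lower at an unadjusted p (4.68% and 5.36% of all genes), with a median of 0.27 that fell to 0.05 without brain C. The median was 0.13 on CDS counts and 0.08 with inputs E and F as controls. Apold1, an early response gene of endothelium, stood at 8.77 and 9.33 against 23.2 and 14.4 CPM (log2 fold change 1.05, adjusted p = 0.0825), Bcl6b at 1.30 (adjusted p = 0.106), Plaur at 1.17 (adjusted p = 0.233) and Akap12 at 0.62 (adjusted p = 0.103). Zfp366, at -1.05, and the lipid transporter Mfsd2a, at -0.46, lay lower without passing. The 15 endothelial markers summed to 771 and 837 CPM in A and B and 788 and 774 in C and D, with none past the threshold. In bulk tissue fewer cells of a type and less RNA per cell cannot be told apart.

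Markers of brain regions moved with the groups or with single brains, and these values stand beside all results above. Summed striatal markers were 2157 and 2067 CPM in A and B and 2409 and 2544 in C and D. At an unadjusted p under 0.05, 10 of the 13 were higher, where 4.68% of all genes were. Among them was Adora2a, at 81.3 and 84.3 against 98.2 and 108 CPM. Thalamic markers summed to 163 and 190 against 115 and 139 CPM, with 6 of 8 lower at an unadjusted p, where 5.36% of all genes were. Hypothalamic markers summed to 72.5 and 88.8 in A and B, 8.10 and 56.7 in C and D, and 5.51 and 16.7 in E and F, so brain C lay with the inputs, with Hcrt at 0. Olfactory bulb markers were 216 and 207 against 307 and 248 CPM, of which Pcp4l1 made up 190 and 182 against 235 and 219. Cdhr1, at 12.5 and 9.66 against 32.0 and 12.7 CPM, and Doc2g, at 5.67 and 5.81 against 21.6 and 7.56, stood out in brain C. Choroid plexus markers summed to 697 CPM in brain B and 38.4, 66.3 and 48.1 in A, C and D, led by Ttr at 607 CPM in B. No marker of any list passed the adjusted threshold. Excitatory neuron markers, the cells that carry the tag, summed to 6397 and 6342 against 6817 and 6500 CPM, and Camk2a stood at 3217 and 3329 against 3351 and 3179 CPM. Region content and a change of these genes in place cannot be told apart, and their part in the calls was not tested.

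**Figure D5:**
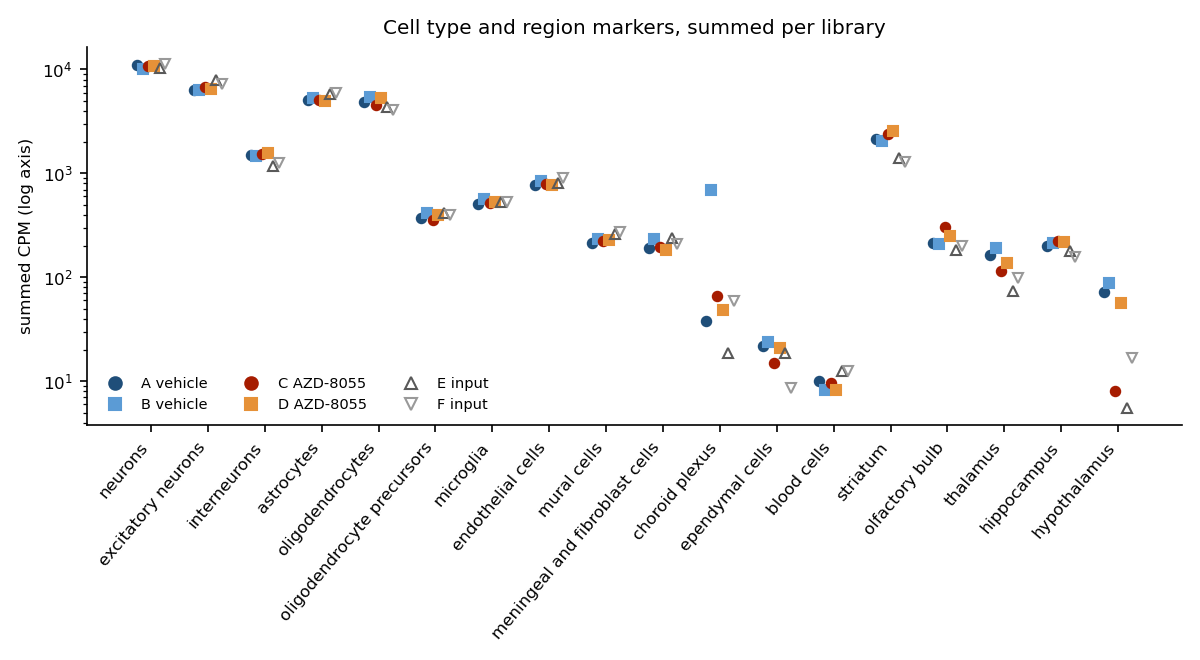
Summed CPM of cell type and brain region markers (vertical, log axis) in each library. Cell type lists lie close in A to D, whereas brain B stands at 697 CPM for the choroid plexus and brain C at 8.10 CPM for the hypothalamus.

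Inputs E and F differed from the vehicle brains in more genes than the treated brains did. They gave 233 genes higher (1.73% of 13475) and 264 lower (1.96%). E and F stood at 902 and 784 CPM for Xist, against at most 0.838 in A to D, and at or under 0.466 for Ddx3y, against 56.7 or more, so they were of the other sex, and sex, experiment, gavage and animal cannot be told apart in that comparison. With E and F as controls 6 of the 18 genes passed (Epha2, Edn1, Dusp1, Dusp6, Macf1 and Fat3), and 16 kept their direction. That fit called 368 genes higher and 349 lower of 13492 tested. It shares brains C and D with the main test, so the kept directions are not independent of it.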

How the data were processed

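Poly(A) RNA-Seq libraries of brains A, B (vehicle), C and D (AZD-8055), and of untreated inputs E and F, were analysed. The authors deposited raw counts per gene in 2 tables, over exons and over CDS. Per the submitters' processing notes and the study's methods, reads were aligned to mm10 with TopHat2 and Bowtie2 and counted with HTSeq in strict intersection mode. Versions are not given in the sources used here. A column each belongs to 1 library, and 0 columns of other samples were used.

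Testing was limited to genes averaging 37 or more counts over the fitted libraries and used edgeR 4.0.16 (R 4.3.3, TMM factors, quasi-likelihood F-test, Benjamini-Hochberg, threshold 0.05), 2 brains against 2. Each group is 2 mice with 1 library each, so p-values measure only the spread between these libraries. Each brain has its own letter, and no brain is shared by the groups compared. CPM were put on a common TMM scale over A to F. Fold changes are on the log2 scale, with edgeR's prior count of 0.125, and the SE follows from the fold change and F. Strand was not given for the counting, so overlapping and antisense genes cannot be told apart. Date-like gene names (27 entries, 0.317% of counts) were kept. Alternatives used DESeq2 1.42.0, limma 3.58.1 and other scalings and filters.

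Members and lists were chosen with earlier results of these data known. The named genes were those past the threshold with groups that did not overlap, list members past it, a set named in all cases, and the lowest and highest member of each list; others are said in the text to be picked after their values were seen. Positions and promoter windows are from RefSeq GRCm38.p6, the build of mm10.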

Additional observations from a re-analysis of the deposited data

How the results depend on the processing

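No paired analysis was possible because each brain has its own letter and the vehicle and treated brains share none. The 5 higher and 13 lower genes became 14 higher with DESeq2, 57 higher and 95 lower without the filter on low counts, 2 higher with a mean of at least 200 counts, 368 higher and 349 lower with inputs E and F as controls, and 0 of each with all 8 RNA-Seq libraries in the fit or with E and F added to the controls. Leaving out 1 brain gave 0 to 53 higher and 0 to 75 lower. Past a fold change of 1.5, 3 higher and 6 lower genes remained, and past 2, 3 higher and 1 lower. The 497 genes that differed between inputs E, F and controls A, B became 934 with DESeq2, 1481 without the filter and 1550 on CDS counts. With E and F as controls, 42 of the 213 genes recomputed changed sign, and 6 of these had passed the test in either comparison: Hspa5 (0.18), Manf (0.039), Erbb4 (-1.46), Atf6 (-0.44), Kalrn (-0.31) and Flt1 (-0.43). The cause of these changes was not tested. All 18 called genes passed with DESeq2, limma-voom, RLE, upper quartile and total count scaling. Depth differed by 1.13-fold between brains A to D, and genes with few counts, such as Epha2, carry the larger errors.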
